A study of Mus musculus with 12 samples.

Results

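The mitochondrial ribosomal protein genes were taken as every probe whose gene symbol is Mrpl or Mrps followed by digits, which gave 130 probes for 77 genes out of 41174 gene probes and 18295 named genes on the array. The symbol given on the platform named 75 of these genes (127 probes), and Mrpl57 and Mrpl58 (3 probes) were reached once old symbols were brought up to date. Each gene is described by its brightest probe over all arrays. All 77 of those probes passed the filter on low signal, and 76 stood above background in both dyes on every array, the exception being Mrps10.

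Mitochondrial ribosomes translate the few proteins encoded by mitochondrial DNA, all of them core subunits of oxidative phosphorylation. Their protein components are encoded in the nucleus, made in the cytosol and imported, and they form a small subunit that reads the messenger RNA and a large subunit that makes the peptide bond. Many have counterparts in bacterial ribosomes, and others are found only in mitochondria. Mitochondrial content rises as preadipocytes become lipid-storing adipocytes.

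The arrays covered 3 groups of 3T3-L1 cells, mouse preadipocytes that can be differentiated into fat cells in culture. TIP60-si cells were mature adipocytes given oligonucleotides against TIP60, a lysine acetyltransferase encoded by Kat5, USP7-si cells were given oligonucleotides against the ubiquitin protease Usp7, and control-si cells received a control oligonucleotide. All were transfected by Amaxa electroporation after differentiation and lysed 2 days later, with 4 arrays for each group and 12 arrays in all. Every array set its sample against one shared RNA from undifferentiated 3T3-L1 cells, with the sample in Cy3 on 2 arrays and in Cy5 on 2 arrays of each group. All of the cells are of a single line, the sequences of the oligonucleotides and any transfection of the undifferentiated cells are not given in the sources used here, and the replicates are not said to come from separate cultures. The p-values may therefore reflect technical spread alone. Kat5 was lower in TIP60-si than in control-si by a log2 difference of -0.999, and Usp7 was lower in USP7-si than in control-si by -1.64. All 17 adipocyte markers were higher in control-si than in the undifferentiated reference, with a median log2 ratio of 2.72, and of the 11 macrophage and blood cell markers 6 were higher and 2 lower, with a median of 0.13. The median raw sample signal of an array lay between 124 and 196 against backgrounds of 39.5 to 44, and the number of arrays limits the precision. Replicate 4 of USP7-si stood apart, with a median absolute log2 ratio of 0.055 over genes against 0.109 to 0.148 on the other 11 arrays.

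The stretch of DNA before the start of a gene is shown for 6 members, because most members were higher in adipocytes together. These 6 are examples and not a representative sample of the members. RefSeq (build GRCm38.p6) gave such a sequence for 68 of the 77 genes. Mrpl12 and Mrpl45 had the highest ratios in control-si adipocytes over the reference, and Mrps22 the highest of the small subunit. Mrps21 was higher and Mrps16 lower in TIP60-si than in control-si, and Mrps25 was the only member called lower in control-si than in the reference. Each line gives the 250 bases before the annotated start, 5′ to 3′ on the gene's strand. Capitals mark matches, on either strand, to the consensus motif of NRF1 or to CCGGAAG (an ETS motif, bound by the GABP factor).
Mrpl12, chr11:120484387-120484636, plus strand: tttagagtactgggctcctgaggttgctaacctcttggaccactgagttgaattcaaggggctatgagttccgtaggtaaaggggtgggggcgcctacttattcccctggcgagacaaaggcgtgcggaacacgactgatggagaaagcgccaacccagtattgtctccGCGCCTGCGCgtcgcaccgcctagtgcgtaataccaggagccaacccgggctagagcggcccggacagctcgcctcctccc
Mrpl45, chr11:97315466-97315715, plus strand: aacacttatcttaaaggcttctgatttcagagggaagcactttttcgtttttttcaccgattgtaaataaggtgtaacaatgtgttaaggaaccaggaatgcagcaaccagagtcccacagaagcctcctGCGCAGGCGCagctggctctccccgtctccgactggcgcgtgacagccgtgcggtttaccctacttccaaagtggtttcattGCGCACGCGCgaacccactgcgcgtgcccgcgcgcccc
Mrps22, chr9:98601680-98601929, minus strand: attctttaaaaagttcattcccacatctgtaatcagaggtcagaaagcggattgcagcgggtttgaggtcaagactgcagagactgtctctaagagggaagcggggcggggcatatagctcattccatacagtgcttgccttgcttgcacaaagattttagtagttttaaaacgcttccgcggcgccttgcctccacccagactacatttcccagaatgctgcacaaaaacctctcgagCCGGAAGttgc
Mrps21, chr3:95871515-95871764, minus strand: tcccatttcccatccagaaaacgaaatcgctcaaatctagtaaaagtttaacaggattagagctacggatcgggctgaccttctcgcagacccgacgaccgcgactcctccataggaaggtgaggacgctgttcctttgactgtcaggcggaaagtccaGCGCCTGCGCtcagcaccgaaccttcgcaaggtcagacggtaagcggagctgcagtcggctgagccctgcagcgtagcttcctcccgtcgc
Mrps16, chr14:20393491-20393740, minus strand: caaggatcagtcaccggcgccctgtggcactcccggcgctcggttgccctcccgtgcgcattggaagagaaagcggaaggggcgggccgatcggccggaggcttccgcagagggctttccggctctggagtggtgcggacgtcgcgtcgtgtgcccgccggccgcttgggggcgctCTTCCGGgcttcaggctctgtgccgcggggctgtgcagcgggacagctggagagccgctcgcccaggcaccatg
Mrps25, chr6:92184024-92184273, minus strand: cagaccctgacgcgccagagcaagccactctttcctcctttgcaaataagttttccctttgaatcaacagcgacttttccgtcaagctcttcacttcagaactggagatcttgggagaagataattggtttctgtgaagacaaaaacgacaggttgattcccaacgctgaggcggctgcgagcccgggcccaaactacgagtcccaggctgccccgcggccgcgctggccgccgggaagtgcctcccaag

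Nuclear respiratory factor 1 (NRF1) and GABP are transcription factors known for their binding before nuclear genes of mitochondrial proteins, and YY1, which binds AAGATGGCG, is another. The NRF1 motif occurred before 10 of the 68 genes (14.7%), against 3.86% of all 27025 sequences of the same length. They lay before Mrpl12 once, starting 81 bases upstream, before Mrpl45 at 120 and at 38 bases upstream, and before Mrps21 at 91 bases upstream. The ETS letters occurred before 16 genes (23.5%), against 7.05% of all sequences, among them Mrps22 at 11 bases and Mrps16 at 74 bases upstream. The YY1 letters occurred before 2 genes, Mrpl36 and Mrps11 (2.94%, against 0.607%). At least one of the 3 motifs was present before 27 genes (39.7%, against 10.8%), no matches of different motifs overlapped, and TATAAA was present before 4 genes (5.88%, against 13.0%). Mrps25 had none of the 3 motifs in this window. Neither did Mrpl1, Mrpl10, Mrpl50, Mrps6, Mrpl48, Mrpl37, Mrps9 and Mrps7, whose sequences are not shown. The sequences shown hold motifs more often than those of the members as a whole. The median log2 ratio in control-si over the reference was 0.64 for the 10 genes with the NRF1 motif and 0.37 for the 58 without it. It was 0.39 with and 0.38 without the ETS letters, 0.27 with and 0.39 without the YY1 letters, and 0.42 with and 0.35 without any of the 3, all given as descriptions with no test.

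In control-si adipocytes the mitochondrial ribosomal protein genes as a group stood above undifferentiated cells. Of the 77 genes, 67 were higher and 1 was lower at an adjusted p below 0.05 (limma over all 12 arrays, Benjamini-Hochberg over all 41174 probes), where 28.3% of all named genes were higher and 28.2% lower, 56.4% in all. All 4 control-si arrays lay above the reference for 68 of the genes, against 32.7% of all genes. The median log2 ratio was 0.38, a 1.30-fold difference, against -0.0019 over all named genes. The differences were small gene by gene, with 20 members over 1.5-fold higher and 2 over 2-fold. Of the 18295 named genes, 1282 were over 1.5-fold higher and 538 over 2-fold. Mitosis genes were higher in the same comparison for 19 of 19 genes, with a median of 2.38-fold, and preadipocyte and fibroblast markers were higher for 2 of 13 and lower for 7, with a median log2 ratio of -0.35, and the part of these shifts in the ribosomal protein ratios was not tested. The shared reference is a single RNA, so its own spread is left out of these errors. These are bulk samples, so fewer cells of a type and less RNA per cell cannot be told apart.

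**Figure D1:**
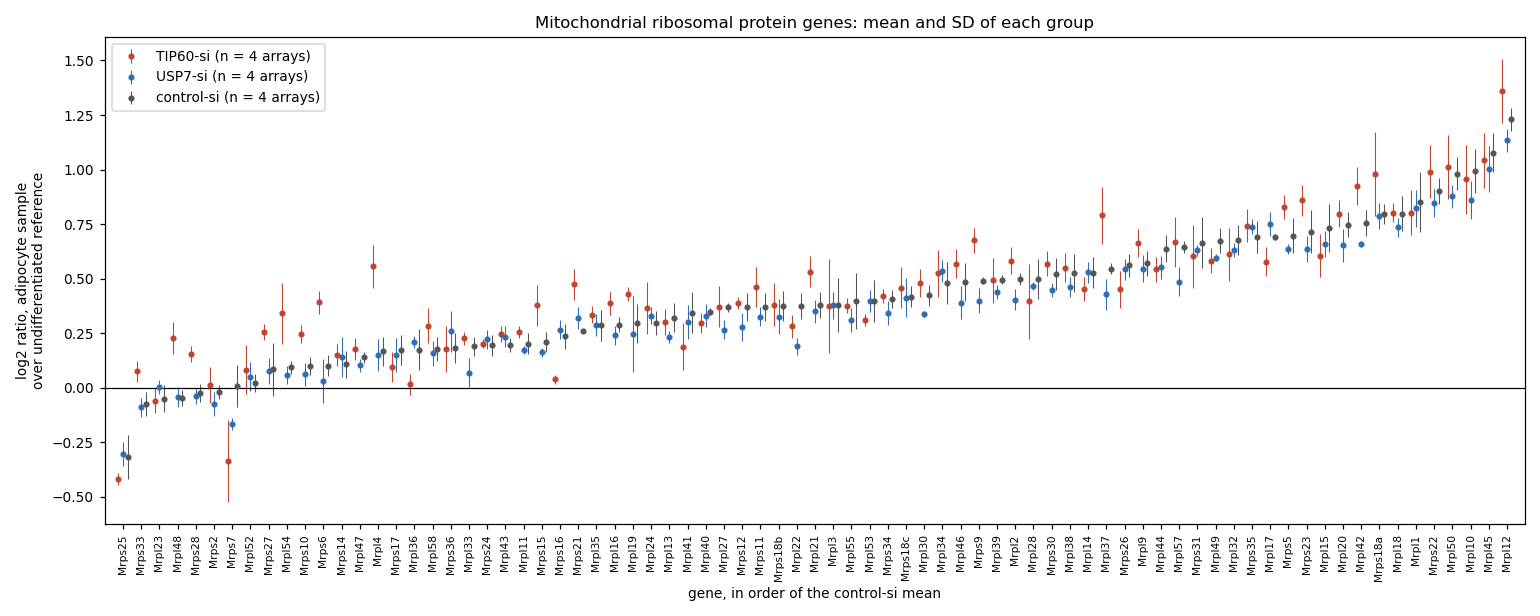
Mean log2 ratio over the undifferentiated reference (y axis) of each of the 77 genes (x axis, in order of the control-si mean), with TIP60-si in red, USP7-si in blue and control-si in grey, and bars of 1 SD over 4 arrays. The control-si means run from -0.32 for Mrps25 to 1.23 for Mrpl12, and 71 of the 77 are above 0.

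Mrpl12, the stalk protein of the large subunit that brings translation factors to the ribosome, had the highest ratio. Its log2 ratios over the reference were 1.30, 1.22, 1.24 and 1.17 on the control-si arrays, a mean of 1.23 ± 0.053 (SD, n = 4) and a 2.35-fold difference (limma adjusted p = 2.2e-11). All 4 arrays were within a narrow band far above 0. Mrpl45, a mitochondria-specific protein near the exit of the peptide tunnel that anchors the ribosome to the inner membrane, followed at 1.03, 1.21, 1.01 and 1.06, a mean of 1.08 ± 0.088 (SD, n = 4; 2.11-fold; adjusted p = 2.5e-10, limma). Its other probe gave 1.03. The next in order were Mrpl10, which holds Mrpl12 in the stalk, at 0.99, Mrpl50 at 0.98, Mrps22 of the small subunit at 0.90, Mrpl1 of the stalk that lines the exit path of transfer RNA at 0.85, and Mrpl18, which lies with the central protuberance, and Mrps18a, both at 0.80. Mrpl12 and Mrpl10, which touch in the ribosome, both stood among the 3 highest.

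The lower end of the order held genes of both subunits. Mrps25, a mitochondria-specific protein of the small subunit, had log2 ratios of -0.24, -0.22, -0.39 and -0.42 on the control-si arrays, a mean of -0.32 ± 0.10 (SD, n = 4; 0.803-fold; adjusted p = 5.9e-06, limma), and all 4 arrays lay below the reference. Its second, dimmer probe gave 0.00051 with an adjusted p of 1.0 (limma), so the lower level was seen with 1 of its 2 probes. The 9 genes that did not pass the test were Mrpl23, Mrpl48, Mrpl52, Mrpl54, Mrps2, Mrps7, Mrps27, Mrps28 and Mrps33, with ratios between -0.07 for Mrps33 and 0.09 for Mrpl54. Of these, 4 had another probe that was called higher, at 0.50 for Mrps7, 0.43 for Mrpl52, 0.38 and 0.11 for Mrps2 and 0.14 for Mrpl48. The second probe of Mrps33 read -0.04 and was not called, and the other 4 genes have 1 probe. Among the 39 genes with several probes, Mrpl35, Mrpl49, Mrps5 and Mrps34 had probes of opposite sign that each lay more than 2 SE from 0, and 26 had all probes on the same side.

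Both subunits were represented among the higher genes. Mrps18a and Mrps30 were counted in the large subunit despite their symbols. In the large subunit 45 of 49 genes were higher in control-si, and the median log2 ratio was 0.48. In the small subunit 20 of 26 were higher and 1 lower, with a median of 0.25. Genes with a bacterial counterpart were higher in 41 of 45 cases with a median of 0.37, and mitochondria-specific ones in 24 of 30 with a median of 0.51. Within the small subunit, the 16 with a bacterial counterpart had a median of 0.20 and the 10 mitochondria-specific ones 0.48. These medians are descriptions and their differences were not tested. Mrpl55 and Mrps36 were left out of the classes, Mrps36 because its product is now known as a part of the oxoglutarate dehydrogenase complex.

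Mitochondrial translation factors and aminoacyl-tRNA synthetases were mostly higher in control-si too, with lower medians than the subunits of the respiratory chain. The assembly genes passed the test as higher less often, although 22 of 29 had ratios above 0. Of all named genes, 28.3% were higher and 28.2% lower in this comparison. Oxidative phosphorylation subunits were higher for 72 of 73 genes with a median log2 ratio of 0.80, and protein import genes for 22 of 25 with a median of 0.43. The translation factors were higher for 16 of 19 (median 0.28), genes of mitochondrial DNA transcription and replication for 12 of 14 (median 0.23) and the mitochondrial aminoacyl-tRNA synthetases for 15 of 21 with 1 lower (median 0.21). Genes that assemble the mitochondrial ribosome or modify its ribosomal RNA were higher for 13 of 29 and lower for 2, with a median of 0.047. Of 4 ribosomal proteins with other symbols, Dap3 of the small subunit (0.73) and Ptcd3 (1.12) were higher, and Chchd1 (0.06) and Gadd45gip1 (0.01) did not pass the test. Cytosolic ribosomal protein genes, which serve the ribosomes outside mitochondria, were higher for 9 of 52 and lower for 19, with a median of -0.048. Among 12 regulators of mitochondrial biogenesis 5 were higher and 4 lower, with the coactivator genes Ppargc1a at 0.60 and Ppargc1b at 1.33, the receptor gene Esrra at 0.62, Nrf1 at -0.20, Gabpa, which encodes the DNA-binding part of GABP, at -0.17, and Yy1 at -0.06, the last without passing the test.

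**Figure D2:**
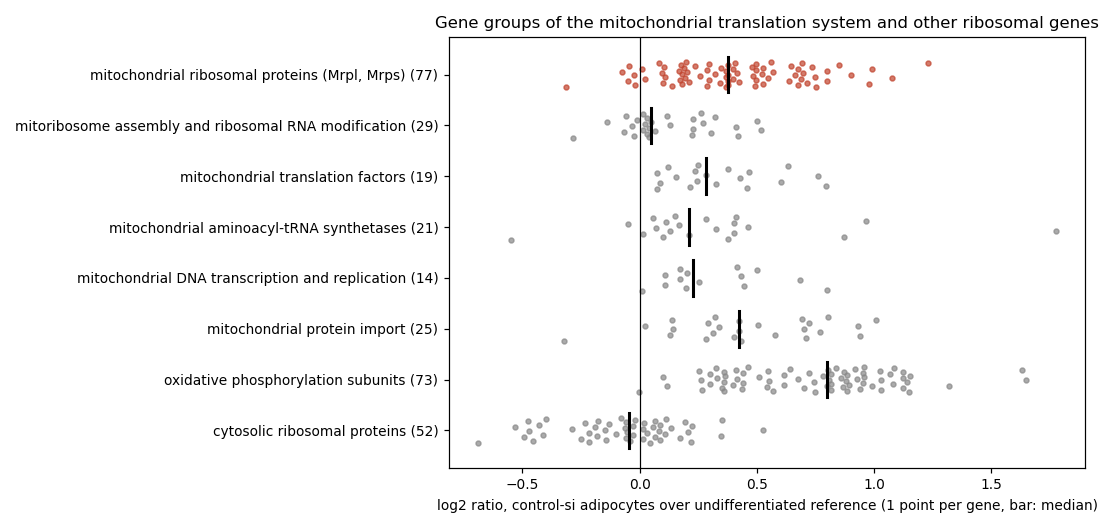
Log2 ratio of control-si over the undifferentiated reference (x axis, mean of 4 arrays) of each gene (1 point) in 8 groups (y axis, number of genes in brackets), with a black bar at the median. The mitochondrial ribosomal proteins (red) have a median of 0.38, between the oxidative phosphorylation subunits at 0.80 and the cytosolic ribosomal proteins at -0.048.

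TIP60-si cells held the mitochondrial ribosomal protein genes at nearly the level of control-si, with a few members moved. Of the 77 genes, 8 were higher in TIP60-si and 2 were lower, where 1.46% of all named genes were higher and 3.74% lower, 5.21% in all. The 4 TIP60-si arrays all lay above the 4 control-si arrays for 14 genes (5.78% of all genes) and all below them for 4 (8.4%). The median log2 difference was 0.038, against -0.0047 over all genes. Above 0 were 50 of the 77 differences, against 8749 of the 18295 named genes. The median was 0.0215 without TIP60-si replicate 4 and 0.0228 without control-si replicate 3, and it was 0.044 within the Cy3 arrays and 0.018 within the Cy5 arrays, 2 arrays a group in each. The median ratio of the 77 genes over the reference was 0.403 to 0.463 on the TIP60-si arrays and 0.362 to 0.432 on the control-si arrays, so the groups overlap. The count of called members fell to 3 to 6 when control-si replicate 1 (4 members), 2 (3), 3 (6) or 4 (3), TIP60-si replicate 1 (6) or 3 (4), or USP7-si replicate 1 (6) or 3 (6) was left out. It was 0 under median centring in place of loess, where the median difference was -0.0996 for the members and -0.079 for all detected genes, and 0 after scaling the arrays to equal spread, where the median was -0.022. Of the 77 differences, 17 were above 0 under median centring and 33 after that scaling.

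**Figure D3:**
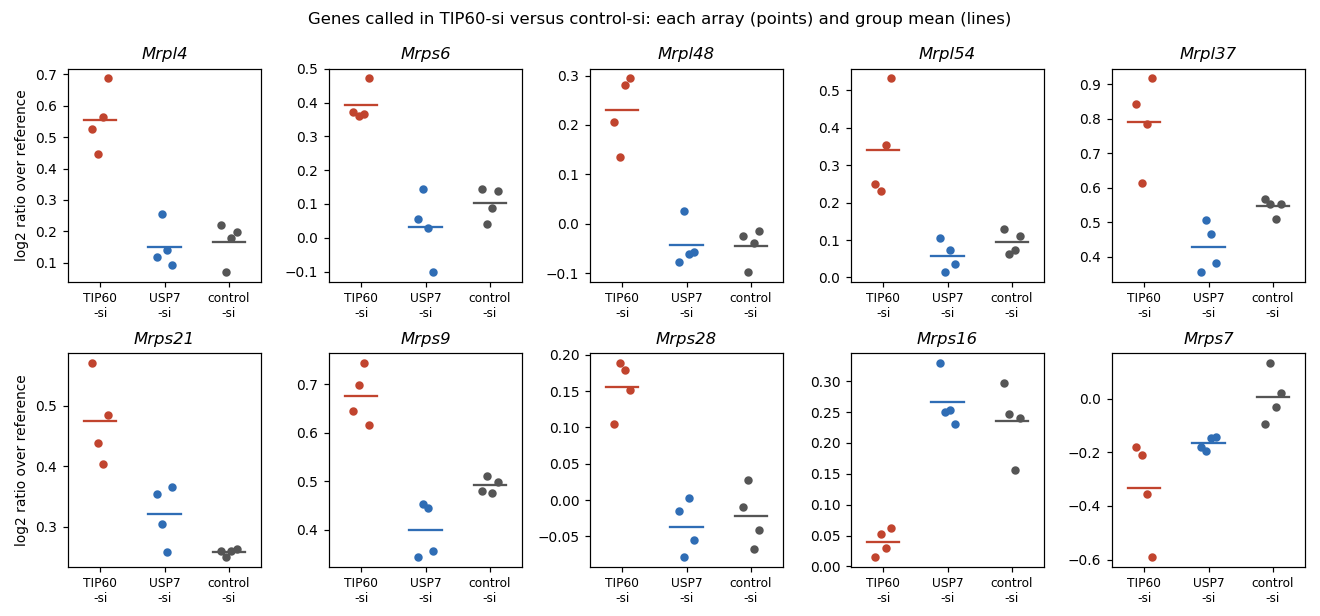
Log2 ratio over the undifferentiated reference (y axis, a scale of its own for each gene) on each array (points) with the mean of each group (lines) for the 10 genes called in TIP60-si versus control-si, with TIP60-si, USP7-si and control-si from left to right. In 8 genes the TIP60-si points lie above all control-si points, and in Mrps16 and Mrps7 below them.

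The 4 large-subunit genes that rose in TIP60-si were Mrpl4, Mrpl48, Mrpl54 and Mrpl37. Mrpl4, a protein with a bacterial counterpart that reaches into the peptide exit tunnel, had log2 ratios of 0.53, 0.45, 0.56 and 0.69 in TIP60-si, against 0.22, 0.07, 0.18 and 0.20 in control-si. The groups did not overlap, and the difference was 0.39 ± 0.06 (SE; 1.31-fold; adjusted p = 0.0034, limma). Mrpl48, a mitochondria-specific protein, had 0.21, 0.14, 0.28 and 0.29 in TIP60-si, against -0.03, -0.10, -0.04 and -0.02 in control-si. The TIP60-si arrays stood above the reference while the control-si arrays stood just under it, a difference of 0.27 ± 0.05 (SE; adjusted p = 0.0071, limma), and its second probe gave 0.22 (adjusted p = 0.016, limma). Mrpl54 had 0.25, 0.23, 0.35 and 0.53 in TIP60-si, against 0.13, 0.06, 0.07 and 0.11 in control-si (difference 0.25 ± 0.06, SE; adjusted p = 0.040, limma). Mrpl37 had 0.84, 0.61, 0.79 and 0.92 in TIP60-si, against 0.57, 0.55, 0.51 and 0.55 in control-si (0.24 ± 0.06, SE; adjusted p = 0.044, limma). Both are mitochondria-specific, and in both the TIP60-si arrays varied more than the control-si arrays.

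The 4 small-subunit genes that rose were Mrps6, Mrps21, Mrps9 and Mrps28, all with bacterial counterparts. Mrps6 had log2 ratios of 0.37, 0.36, 0.37 and 0.47 in TIP60-si, against 0.14, 0.04, 0.09 and 0.14 in control-si. The lowest TIP60-si array was well above the highest control-si array, with a difference of 0.29 ± 0.06 (SE; 1.22-fold; adjusted p = 0.011, limma), and the second probe gave 0.33 (adjusted p = 0.0060, limma). Mrps21 had 0.57, 0.44, 0.40 and 0.48 in TIP60-si, against 0.26, 0.25, 0.26 and 0.26 in control-si (0.22 ± 0.05, SE; adjusted p = 0.021, limma). Mrps9 had 0.65, 0.70, 0.74 and 0.62 in TIP60-si, against 0.48, 0.51, 0.48 and 0.50 in control-si (0.18 ± 0.05, SE; adjusted p = 0.041, limma). Mrps28 had 0.10, 0.19, 0.18 and 0.15 in TIP60-si, against -0.01, 0.03, -0.07 and -0.04 in control-si (0.18 ± 0.04, SE; adjusted p = 0.036, limma). In none of these 4 genes did the TIP60-si and control-si arrays overlap on the brightest probe. The other probes of Mrps9 gave differences of -0.044 and 0.21.

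Mrps16 and Mrps7 fell. Mrps16, a small-subunit protein whose loss in people causes a mitochondrial translation defect, had log2 ratios of 0.02, 0.05, 0.03 and 0.06 in TIP60-si, against 0.30, 0.25, 0.16 and 0.24 in control-si, so that TIP60-si adipocytes sat near the level of undifferentiated cells (difference -0.20 ± 0.04, SE; 0.873-fold; adjusted p = 0.028, limma). Mrps7, which binds the small ribosomal RNA, had -0.18, -0.21, -0.35 and -0.59 in TIP60-si, against -0.09, 0.13, -0.03 and 0.02 in control-si (-0.34 ± 0.08, SE; adjusted p = 0.030, limma). The second probe of Mrps7 gave 0.14 ± 0.06 (SE; adjusted p = 0.22, limma), the opposite sign, so the fall rests on 1 of 2 probes. The calls for Mrpl4, Mrps6 and Mrpl48 were kept whichever array was left out. Those for the other 7 genes were each lost without at least 1 array, up to 9 of the 12 for Mrps9, Mrps28 and Mrpl37.

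Few genes around the ribosome were called in TIP60-si versus control-si, where 5.21% of all named genes were called. With 0 to 6 genes called in a list, the counts describe the genes named and are not a result about the lists. Dap3 was lower by a log2 difference of -0.24 (adjusted p = 0.016, limma) and was 1 of the 4 ribosomal proteins with other symbols. Oxidative phosphorylation subunits were higher in 6 of 73 cases and lower in 0, led by the complex I gene Ndufa10 (0.37), the complex I gene Ndufs8 (0.30) and the complex III gene Uqcrc1 (0.30), with a median of 0.065. The translation factor list had 1 of 19 higher, Metap1d, which trims the first methionine (0.30), and the assembly list 1 of 29 lower, Mrm1, which methylates the large ribosomal RNA (-0.21). The aminoacyl-tRNA synthetase Lars2 (-0.51), the DNA polymerase subunit gene Polg2 (-0.32) and the regulator Yy1 (-0.35) were lower, each the only member of its list called. Import genes had 0 of 25 called, and cytosolic ribosomal protein genes 1 of 52, Rps18, which was lower (-0.20).

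The marker lists were read in the same arrays, where 1.46% of all named genes were higher and 3.74% lower in TIP60-si versus control-si. In TIP60-si versus control-si, 2 of 17 adipocyte markers were higher, the triglyceride-synthesis gene Agpat2 (0.38) and the lipase gene Pnpla2 (0.39), with a median of 0.15. The mean log2 ratio over that list was 3.29 to 3.45 on the TIP60-si arrays, 2.85 to 3.25 on the USP7-si arrays and 3.12 to 3.43 on the control-si arrays, with all 17 markers detected on every array. Mitosis genes were lower in 11 of 19 cases, with means over the list of 0.77 to 0.95 in TIP60-si, 0.76 to 1.01 in USP7-si and 1.10 to 1.34 in control-si. Preadipocyte and fibroblast markers had 1 of 13 called in TIP60-si versus control-si, the surface protein gene Thy1, which was higher (0.26), with means over the list of -0.38 to -0.28 in TIP60-si, -0.47 to -0.23 in USP7-si and -0.37 to -0.34 in control-si. Macrophage and blood cell markers had 0 of 11 called in any comparison of the 3 groups and means of 0.020 to 0.065 in TIP60-si, -0.019 to 0.058 in USP7-si and -0.040 to -0.014 in control-si. The part of these shifts in the ribosomal protein differences was not tested.

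In USP7-si cells no mitochondrial ribosomal protein gene passed the test. Of the 77 genes 0 were called against control-si (limma), where 0.137% of all named genes were called, and 4 members had an unadjusted p below 0.05, all lower, against 7.21% of all genes in either direction. That number was 12 without control-si replicate 3, 2 without USP7-si replicate 1 or 4, 11 with array quality weights, 2 with no dye term and 0 with median centring. The count was 0 under every alternative run, including the authors' deposited log2 ratios. The differences ran from -0.19 to 0.08 with a median of -0.041, against 0.0039 over all genes. Below 0 were 60 of the 77, against 8708 of the 18295 named genes. The median was -0.012 within the Cy3 arrays, where 32 members were above 0, and -0.067 within the Cy5 arrays, where 15 were. After scaling to equal spread the median turned to 0.058, with 59 members above 0. It was -0.018, with 26 above 0, when USP7-si replicate 4 was also left out.

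Mrpl22, which lines the peptide exit tunnel together with Mrpl4, had the lowest USP7-si value. Its log2 ratios were 0.15, 0.23, 0.21 and 0.17 in USP7-si, against 0.45, 0.32, 0.33 and 0.40 in control-si, a difference of -0.19 ± 0.05 (SE; adjusted p = 0.29, limma). The 4 USP7-si arrays lay below all 4 control-si arrays, as they did for 8 members in all (Mrpl22, Mrpl27, Mrpl30, Mrpl37, Mrpl42, Mrpl57, Mrps7 and Mrps9; 2.66% of all genes), and they lay above them for 0 members (2.81% of all genes). The highest values, 0.08 for Mrps36 and 0.06 for Mrps21, did not pass the test either. Among the lists around the ribosome, Lars2 was the only gene called, with a difference of -0.42 (adjusted p = 0.035, limma), and the lists' medians ran near 0, from -0.089 for import genes to 0.011 for regulators of mitochondrial biogenesis.

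The knockdowns differed from each other in more members than either differed from control-si, and all named genes showed the same order. Of all named genes 9.66% were called between the knockdowns, 5.21% in TIP60-si and 0.137% in USP7-si versus control-si. Set directly against USP7-si, TIP60-si was higher in 15 of the 77 genes and lower in 3, where 3.03% of all named genes were higher and 6.62% lower, 9.66% in all. The 4 TIP60-si arrays lay above all 4 USP7-si arrays for 30 genes (7.28% of all genes) and below them for 4 (11.1%). The median log2 difference was 0.082, against -0.0070 over all genes. The median ratio of the members over the reference was 0.403 to 0.463 on the TIP60-si arrays and 0.317 to 0.364 on the USP7-si arrays, so the lowest TIP60-si array stood above the highest USP7-si array. The median was 0.069 within the Cy3 arrays and 0.073 within the Cy5 arrays, 2 arrays a group in each. Leaving out TIP60-si replicate 1 or 3 gave 11 called members each, and leaving out USP7-si replicate 1 gave 9, replicate 3 gave 10 and replicate 4, the array with the narrowest ratios, gave 8. The median was below 0 under some other processing. It was -0.066 under median centring (0 members called), where all detected genes stood lower still at -0.082. After scaling to equal spread it was -0.079 (4 called), with all detected genes at -0.0077.

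**Figure D4:**
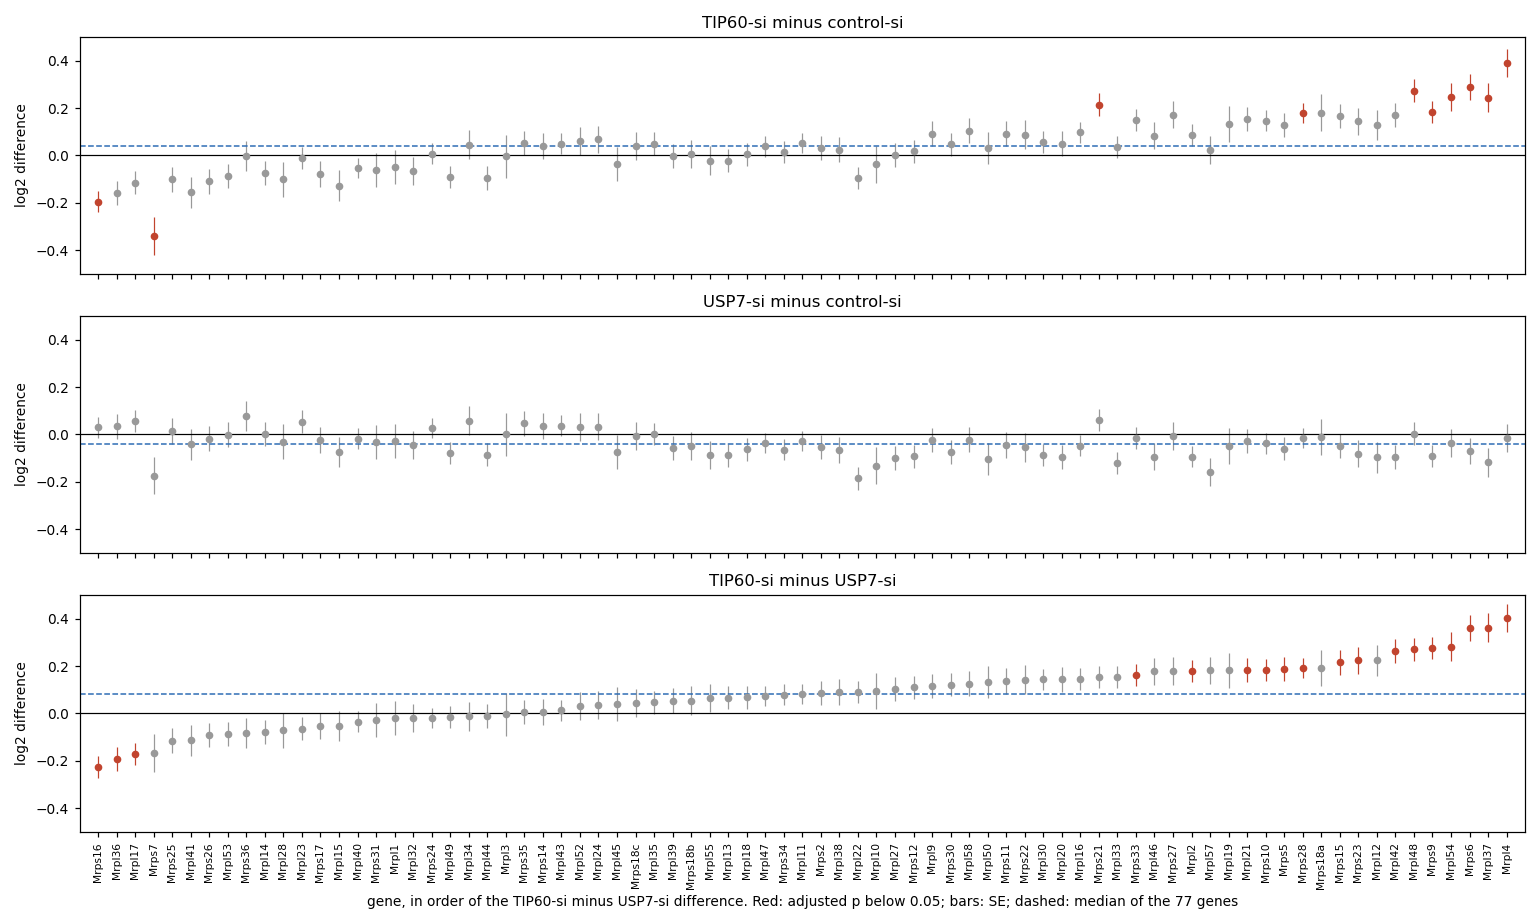
Log2 difference (y axis) of each of the 77 genes (x axis, ordered by TIP60-si minus USP7-si) for TIP60-si minus control-si, USP7-si minus control-si and TIP60-si minus USP7-si from top to bottom, with bars of 1 SE, red points at an adjusted p below 0.05 and a dashed line at the median. The panels hold 10, 0 and 18 red points. The first 2 share the control-si arrays, the first and last the TIP60-si arrays, and the last 2 the USP7-si arrays.

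Most of the strongest members were those already described, and the same TIP60-si arrays enter both comparisons. Mrpl4 had 0.53, 0.45, 0.56 and 0.69 in TIP60-si, against 0.12, 0.26, 0.14 and 0.09 in USP7-si (difference 0.40 ± 0.06, SE; 1.32-fold; adjusted p = 0.0016, limma). Mrpl37 had 0.84, 0.61, 0.79 and 0.92 in TIP60-si, against 0.36, 0.51, 0.47 and 0.38 in USP7-si (0.36 ± 0.06, SE; adjusted p = 0.0039, limma), and here the USP7-si arrays also lay below all control-si arrays. Mrps6 had 0.37, 0.36, 0.37 and 0.47 in TIP60-si, against 0.05, 0.14, 0.03 and -0.10 in USP7-si (0.36 ± 0.06, SE; adjusted p = 0.0020, limma). Mrpl54 (0.28), Mrps9 (0.28), Mrpl48 (0.27) and Mrps28 (0.19) were higher as well, while Mrps21 was at 0.15 with an adjusted p of 0.066 (limma). The other probes of Mrps9 gave 0.040 and 0.22.

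Further genes were called between the knockdowns without being called in TIP60-si against control-si. Mrpl42, a mitochondria-specific large-subunit protein, had 1.04, 0.92, 0.91 and 0.83 in TIP60-si, against 0.66, 0.66, 0.65 and 0.68 in USP7-si, with control-si between at 0.70 to 0.84. The difference was 0.27 ± 0.05 (SE; adjusted p = 0.0072, limma), and the second probe gave 0.28. Mrps23 (0.22), Mrps15 of the small-subunit platform (0.22), Mrps5 of the decoding region (0.19), Mrps10 (0.18), Mrpl21 (0.18), Mrpl2 of the peptidyl transferase region (0.18) and Mrps33 (0.16) were higher too, with adjusted p-values from 0.021 to 0.048 (limma). The second probe gave 0.25 for Mrps23 and 0.21 for Mrps33, but 0.0013 for Mrps15. The other probes of Mrps5 gave -0.084 and 0.20. Mrpl12, at the head of the adipocyte ratios, was at 0.23 with an adjusted p of 0.053 (limma).

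Mrps16, Mrpl36 and Mrpl17 were lower in TIP60-si than in USP7-si. Mrps16 had 0.02, 0.05, 0.03 and 0.06 in TIP60-si, against 0.33, 0.25, 0.25 and 0.23 in USP7-si (difference -0.23 ± 0.04, SE; adjusted p = 0.0084, limma). Mrpl36, a very small protein of the large subunit, had -0.01, 0.08, 0.02 and -0.03 in TIP60-si, against 0.22, 0.18, 0.24 and 0.20 in USP7-si (-0.19 ± 0.05, SE; adjusted p = 0.037, limma). Mrpl17 had 0.50, 0.58, 0.66 and 0.57 in TIP60-si, against 0.81, 0.78, 0.69 and 0.72 in USP7-si (-0.17 ± 0.05, SE; adjusted p = 0.040, limma). The TIP60-si and USP7-si arrays did not overlap in any of the 3 genes, although the second probe of Mrpl17 gave 0.018. The calls for Mrpl4, Mrpl37, Mrpl42, Mrpl48, Mrpl54, Mrps6, Mrps9 and Mrps16 were kept whichever array was left out, and the other 10 were each lost without at least 1 array.

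The surrounding lists had the same comparison, where 3.03% of all named genes were higher and 6.62% lower, 9.66% in all. The counts describe the genes named and are not a result about the lists. The elongation factor genes Tufm (0.18), Tsfm (0.23) and Gfm1 (0.23) and the translational activator Taco1 (0.39) were higher in TIP60-si than in USP7-si, 4 of 19 translation factors. Import genes were higher in 6 of 25 cases, with Timm50 of the inner-membrane channel at 0.34, and oxidative phosphorylation subunits in 8 of 73, with Ndufa10 at 0.50, and in both lists 0 were lower. In the assembly list Ddx28 was higher (0.17), and Mrm1 (-0.27) and Nsun4 (-0.18) were lower, and Dap3 was lower by -0.24. The regulators Myc (0.46) and Yy1 (-0.39) were called in opposite directions. Cytosolic ribosomal protein genes had 2 of 52 lower, Rpl11 (-0.18) and Rps18 (-0.19). Adipocyte markers were higher in 4 of 17 cases with a median of 0.23, preadipocyte and fibroblast markers were higher in 1 of 13 (Thy1, 0.25) and lower in 2 (the collagen genes Col1a1, -0.48, and Col1a2, -0.36), and the part of these shifts in the ribosomal protein differences was not tested.

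**Figure D5:**
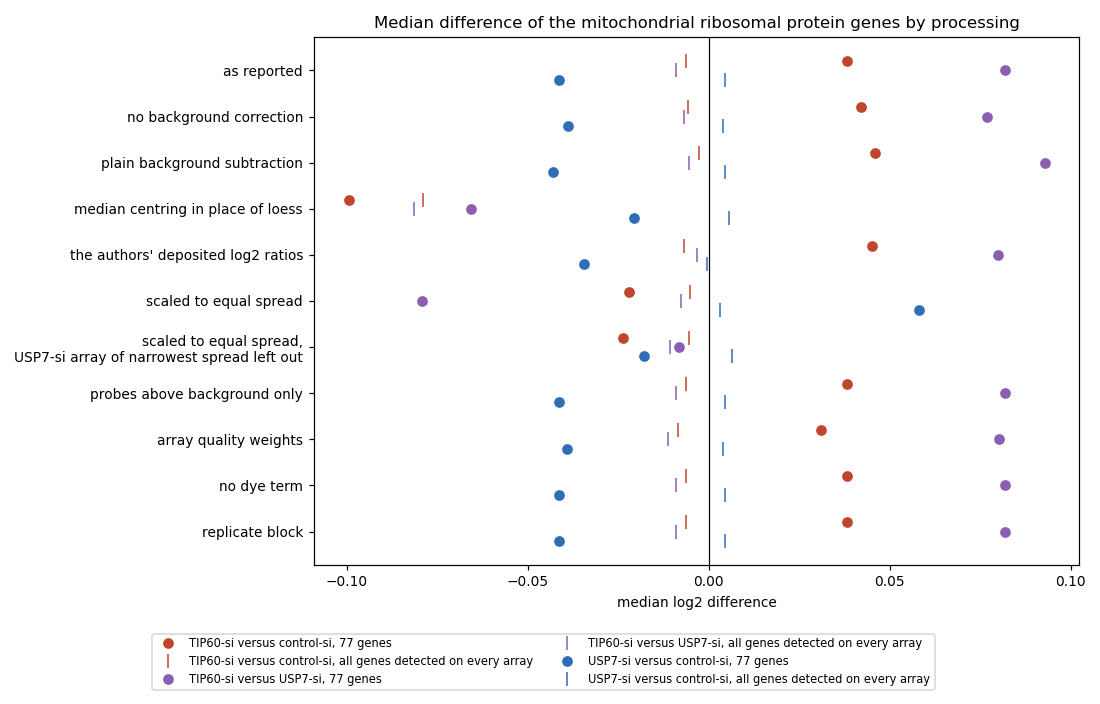
Median log2 difference (x axis) of the 77 genes (filled circles) and of all genes detected on every array (vertical ticks) under each processing (y axis), for TIP60-si versus control-si (red), TIP60-si versus USP7-si (purple) and USP7-si versus control-si (blue). The red and purple circles lie right of 0 except under median centring and under both scalings to equal spread.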

How the data were processed

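Per the labels' protocols, the authors scanned on an Agilent G2565BA scanner, extracted spots with Imagene and applied print-tip loess without background correction. The deposited scanner files hold the linear intensity of spot and local background, the deposited normalized files hold linear intensity after that step, and the deposited value table holds log2 ratios that equal log2 of sample over reference in the normalized files. The genome build of the array annotation is not given in the sources used here.

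Intensities were corrected with normexp (offset 50) and loess (control spots at weight 0) and turned to log2 of sample over reference with limma 3.58.1 in R 4.3.3. One model with group and dye orientation was fitted to all 12 arrays (lmFit, eBayes), with two-sided tests and Benjamini-Hochberg adjustment over 41174 probes at 0.05. Printed array values, means and SDs are corrected for the fitted dye term. TIP60-si and USP7-si share the control-si arrays. The fit was tested on simulated ratios with seeded changes and independent noise. These did not pass through normalization, so that test says nothing about the normalization. Same-numbered arrays of different groups had residual correlations of -0.29 to 0.31, so the numbers were not taken as pairs.

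Named genes were Usp7 and Kat5, the 8 members at each end of every comparison, members called in a knockdown, members with discordant probes, and up to 3 genes of each list by p, and any other gene named was chosen after its values were seen. Members, classes and lists were chosen with earlier results of these data known. Alternatives concerned background, normalization, scaling, the signal filter, weights, dye, the replicate block, probes, symbols and each array.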

Additional observations from a re-analysis of the deposited data

Results flagged for a closer look

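A value was picked out where, in a group of 4 arrays, the highest or the lowest array lay farther from its nearest neighbour than Dixon's critical value allows for the range of the group. In 144 such groups 7 met this, and chance gives about 1 in 20. In TIP60-si, replicate 4 was the highest for Mrps6 (log2 ratio 0.472) and Mrps18a (1.27), and replicate 3 the lowest for Mrps14 (0.0737). In USP7-si, replicate 2 was the lowest for Mrpl45 (0.843) and Mrpl21 (0.270). In control-si, replicate 2 was the highest for Mrpl28 (0.634) and Mrpl21 (0.467). Mrps6 and Mrpl21 are among the genes called between the knockdowns, and the call for Mrpl21 was lost without any 1 of 10 arrays.

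The responses to the 2 knockdowns differed, by the test of TIP60-si versus USP7-si itself, for 18 genes on their brightest probe. The log2 difference was positive for Mrpl4 (0.40), Mrpl37 (0.36), Mrps6 (0.36), Mrpl54 (0.28), Mrps9 (0.28), Mrpl48 (0.27), Mrpl42 (0.27), Mrps23 (0.22), Mrps15 (0.22), Mrps28 (0.19), Mrps5 (0.19), Mrps10 (0.18), Mrpl21 (0.18), Mrpl2 (0.18) and Mrps33 (0.16). It was negative for Mrps16 (-0.23), Mrpl36 (-0.19) and Mrpl17 (-0.17). Over all 130 member probes 26 were higher and 3 lower, against 2.97% and 4.4% of all gene probes. Dimmer probes of genes outside the 18 were called higher too, among them those of Mrpl28 (0.32), Mrpl38 (0.27) and Mrpl3 (0.20). The brightest probe of Mrpl28 read -0.071.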

How the results depend on the processing

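In control-si over the reference the count of called members kept within 1.5 times of 68 in all 23 alternatives (50 to 70), and the median moved only when all probes of a gene were averaged (0.339), where Mrps2 turned to 0.157. In USP7-si versus control-si 0 members were called under all 24 alternatives, with a median of 0.058 after scaling to equal spread. In TIP60-si versus control-si the 10 called members became 3 with plain background subtraction, 3 with no dye term, 0 with median centring, 0 with scaling to equal spread and 4 with scaling when USP7-si replicate 4 was left out, a setting chosen after seeing the data, and 3 to 10 when 1 array was left out. Its median of 0.038 turned to -0.0996 with median centring, -0.0222 with scaling and -0.0238 with scaling without that array. In TIP60-si versus USP7-si the 18 called members became 9 with plain background subtraction, 8 with no dye term, 0 with median centring, 4 with scaling, 5 with scaling without that array, and 8 to 17 when 1 array was left out. Its median of 0.082 turned to -0.0657 with median centring, -0.0794 with scaling and -0.0083 with scaling without that array. Single genes that turned between the knockdowns were Mrps33 (-0.0088) with median centring and Mrps23 (-0.0965), Mrpl2 (-0.0193), Mrps5 (-0.0889) and Mrpl42 (-0.0706) with scaling. The cause of these changes was not tested. The authors' deposited log2 ratios gave 10, 0 and 13 called members in the 3 comparisons. With the replicate number as a block the counts were 9, 0 and 18, so the block did not move a count by over 1.5 times. Over single named genes, 4317 of 4627 values kept direction and call and 257 lost the call. A further 18 gained a call, 29 moved without a test and 6 reversed. These values pool all comparisons and include genes not called to begin with, so the share kept does not describe the knockdown calls. Without any 1 array, 3 of 10 calls were kept in TIP60-si versus control-si and 8 of 18 between the knockdowns. A block for slide or scan was not run, since the files used here give no such batch. Signal over background did not limit the brightest probes of the members, except for Mrps10. Of all 130 member probes, 118 stood above background in both dyes on every array and 128 passed the filter on low signal. The part of low signal in the readings of the dimmer probes was not tested.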
